A study of Mus musculus with 22 samples.

Results

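The effect of an anti-PD-1 antibody was measured in the granulocytic class of myeloid-derived suppressor cells (G-MDSCs), taken from mammary tumours of mice that all received entinostat, with the presence of an anti-CTLA-4 antibody as a covariate. Of 22 samples in the series, the 16 whose column name begins with the entinostat code were taken, and the 8 with the anti-PD-1 code in the name were set against the 8 without it. All 655 endogenous genes of the panel entered, and 420 of them stood above background in at least 1 of the 4 groups and were tested. The members were chosen by their labels and not by any measured value. RNA was counted with NanoString's panel of mouse myeloid genes, an assay that reads transcripts through fluorescent barcodes without amplifying them. The values are the authors' normalized counts.

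G-MDSCs are immature neutrophil-like cells that gather in tumours and blood and restrain T cells through arginase, reactive oxygen species, prostaglandins and checkpoint ligands. PD-1 is a receptor carried mainly by activated T cells, and its ligand PD-L1 (Cd274) is carried by tumour cells and myeloid cells. An antibody to PD-1 thus acts mainly on lymphocytes and can reach neutrophil-like cells through what the lymphocytes release. Interferon-gamma from T cells is the best known such signal, and it raises Cd274 and genes of antigen presentation. Entinostat inhibits class I histone deacetylases, enzymes that remove acetyl groups from histones.

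Female neu-N mice (strain label FVB-Neu-N), 7 to 8 weeks old, carry a rat neu transgene and are tolerant to its product. They received 50000 cells of the mammary tumour line NT2.5 in the mammary fat pad. Treatment started 3 days later and ran for 3 weeks. Entinostat was given at 5 mg/kg by mouth each day in 0.5% methylcellulose. Anti-PD-1 and anti-CTLA-4 were given at 100 µg per mouse 2 times a week by injection into the peritoneum. The 4 groups, of 4 samples each, were entinostat plus anti-PD-1, entinostat alone, the triple combination of entinostat with both antibodies, and entinostat plus anti-CTLA-4. Isotype antibodies are stated for vehicle mice only, so groups lacking an antibody may have had none in its place, and no group here received an antibody without entinostat. The protocol mentions an anti-HER2 antibody without saying whether these mice received it. Cells were selected for Ly6G and passed over the column 2 times. The labels do not tie samples to separate animals, so the p-values reflect spread among samples that may be only technical.

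Barcode counts summed to 23296 in triple combination sample 2 and to between 107446 and 443871 in the other 15 samples. A normalized count stood for 1 barcode count multiplied by 0.529 to 9.78 in the triple combination, against 0.3997 to 1.48 in entinostat plus anti-CTLA-4. The factor was 0.959 to 1.497 in entinostat plus anti-PD-1, against 1.77 to 2.32 in entinostat alone. For 2 pairs of columns a name stood on both columns, and these are called samples a and b of the triple combination and of entinostat plus anti-CTLA-4. Each column heading holds a date and a number, read here as a cartridge, a word that the headings do not use. Every sample of the groups without anti-CTLA-4 carried 1 date and number, called the first cartridge. Every sample of the groups with anti-CTLA-4 carried the other number and a later date, called the second cartridge. The exception was triple combination sample a, which lay on the first cartridge between vehicle samples. Entinostat plus anti-CTLA-4 sample a stood apart. Over the tested genes it correlated at 0.826 to 0.864 with the other samples of its own group and at 0.919 to 0.980 with samples of other groups, the highest with entinostat sample 1. Triple combination sample a also correlated best with a sample of another group, at 0.977 with entinostat plus anti-CTLA-4 sample 3, against 0.875 to 0.970 with its own group. A column that carries another sample's name and a true difference between samples cannot be told apart in these files, and every result takes the labels as given. As for the label of the cells, neutrophil transcripts such as S100a8 and S100a9 were abundant in every sample. Ly6g itself ran from 1.74 to 30.2 normalized counts, and its mean, like those of Mpo, Elane and Mmp8, was under the background limit of 29.3 in every group. Of 8 T and NK cell markers on the panel only Gata3 passed the limit, and the single B cell marker, Ms4a1, did not.

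Averaged over the settings with and without anti-CTLA-4, no gene passed the test for an effect of anti-PD-1. In limma's fit, 0 of 420 genes (0%) had an adjusted p under 0.05, the smallest adjusted p was 0.729, and 6 genes (1.43%) had an unadjusted p under 0.05, 4 higher (0.952%) and 2 lower (0.476%). Quasi-likelihood tests with edgeR on the recovered barcode counts also called 0 genes, with 4 at an unadjusted p under 0.05 under the deposited scaling and 15 under TMM factors. The log2 fold changes ran from -0.46 to 1.01, and their 95% confidence intervals reached a median of 0.47 to either side. For 278 genes (66.2%) the whole interval lay within 1 log2 unit of 0. For the remaining genes the interval also held differences of more than 1 log2 unit. Anti-PD-1 took up a median of 4.11% of a gene's variance over the 16 samples, and at most 31.4%, against a median of 19.0% for anti-CTLA-4, whose share was the larger in 345 genes. The same fit called 130 genes (31%) for anti-CTLA-4, 10 higher (2.38%) and 120 lower (28.6%). Because anti-CTLA-4 and the cartridge went together but for 1 sample, the antibody and the cartridge cannot be told apart in this share and these calls. On the deposited scale 288 genes (68.6%) had a positive fold change for anti-PD-1, with a median of 0.12. This balance depended on the scaling. After centring each sample on its median 52.6% were positive (median 0.03), after quantile normalization 44.3% (-0.04) and with TMM factors 41.7% (-0.09).

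The 10 genes of smallest p in the upward direction are described here, none of which passed the test. Cxcl16, a membrane-bound chemokine that draws CXCR6-bearing T cells, measured 143 to 225 normalized counts (median 175) in the 8 samples with anti-PD-1, against 115 to 190.3 (median 147) in the 8 without. Its log2 fold change was 0.30 (SE 0.13, 95% interval 0.03 to 0.57, adjusted p = 0.729), and 7 of the 8 samples with anti-PD-1 lay above the median of those without, though the ranges overlapped. Daglb, a lipase that makes an endocannabinoid, measured 19.6 to 68.4 normalized counts (median 28.9) in the 8 samples with anti-PD-1, against 11.6 to 37.1 (median 21.1) in the 8 without. Its log2 fold change was 0.59 (SE 0.26, 95% interval 0.05 to 1.14, adjusted p = 0.729). Here 7 of the 8 samples lay above the median of those without, and the lowest sample with anti-PD-1 was inside their range. Both medians of Daglb were under the background limit of 29.3 normalized counts, and the part of background in its difference was not tested. Cldn1, a tight junction protein, had a log2 fold change of 0.81 (SE 0.35, 95% interval 0.06 to 1.56, adjusted p = 0.729). Siglecf, a sialic acid-binding receptor of eosinophils that some tumour neutrophils also carry, gave 0.60 (SE 0.26, 95% interval 0.03 to 1.16, adjusted p = 0.729). The next by p were Was, an actin regulator of blood cells (0.68), Cysltr1, a leukotriene receptor (0.74), and Fcgr4, an activating receptor for IgG (0.69), in log2 fold change. They were followed by Il1b, the cytokine interleukin-1 beta (0.61), Ccrl2, a non-signalling chemerin receptor (0.60), and Vegfa, the angiogenic growth factor (0.31). Samples with anti-PD-1 above the median of those without numbered 7 of 8 for Cldn1, Cysltr1 and Fcgr4. The number was 6 for Siglecf, Was and Vegfa, 5 for Il1b and 4 for Ccrl2. All 10 of these genes had an adjusted p of 0.729.

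In the downward direction, too, none of the 10 genes of smallest p passed. Tgfa, a ligand of the EGF receptor, measured 71.0 to 94.7 normalized counts (median 77.8) in the 8 samples with anti-PD-1, against 72.7 to 155 (median 95.8) in the 8 without. Its log2 fold change was -0.33 (SE 0.14, 95% interval -0.62 to -0.04, adjusted p = 0.729), with 8 of the 8 samples with anti-PD-1 under the median of those without and overlapping ranges. Edn, whose accession is that of Edn1 in RefSeq, a vasoconstrictor peptide, measured 31.4 to 67.2 normalized counts (median 42.6) in the 8 samples with anti-PD-1, against 48.8 to 83.5 (median 50.6) in the 8 without. Its log2 fold change was -0.35 (SE 0.15, 95% interval -0.68 to -0.02, adjusted p = 0.729). The next by p, in log2 fold change, were Adamts4, a protease of cartilage proteoglycans (-0.32), Fosb, an AP-1 subunit (-0.23), and Kitl, the ligand of the Kit receptor (-0.20). Then came Akap13, a scaffold for protein kinase A signalling (-0.17), and Mmp13, a collagenase (-0.46). Enc1, an actin-binding kelch protein, Rab3d, a GTPase of exocytosis, and Fyn, a Src family kinase, followed with log2 fold changes of -0.20, -0.17 and -0.14. All 10 genes had an adjusted p of 0.729.

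**Figure D1:**
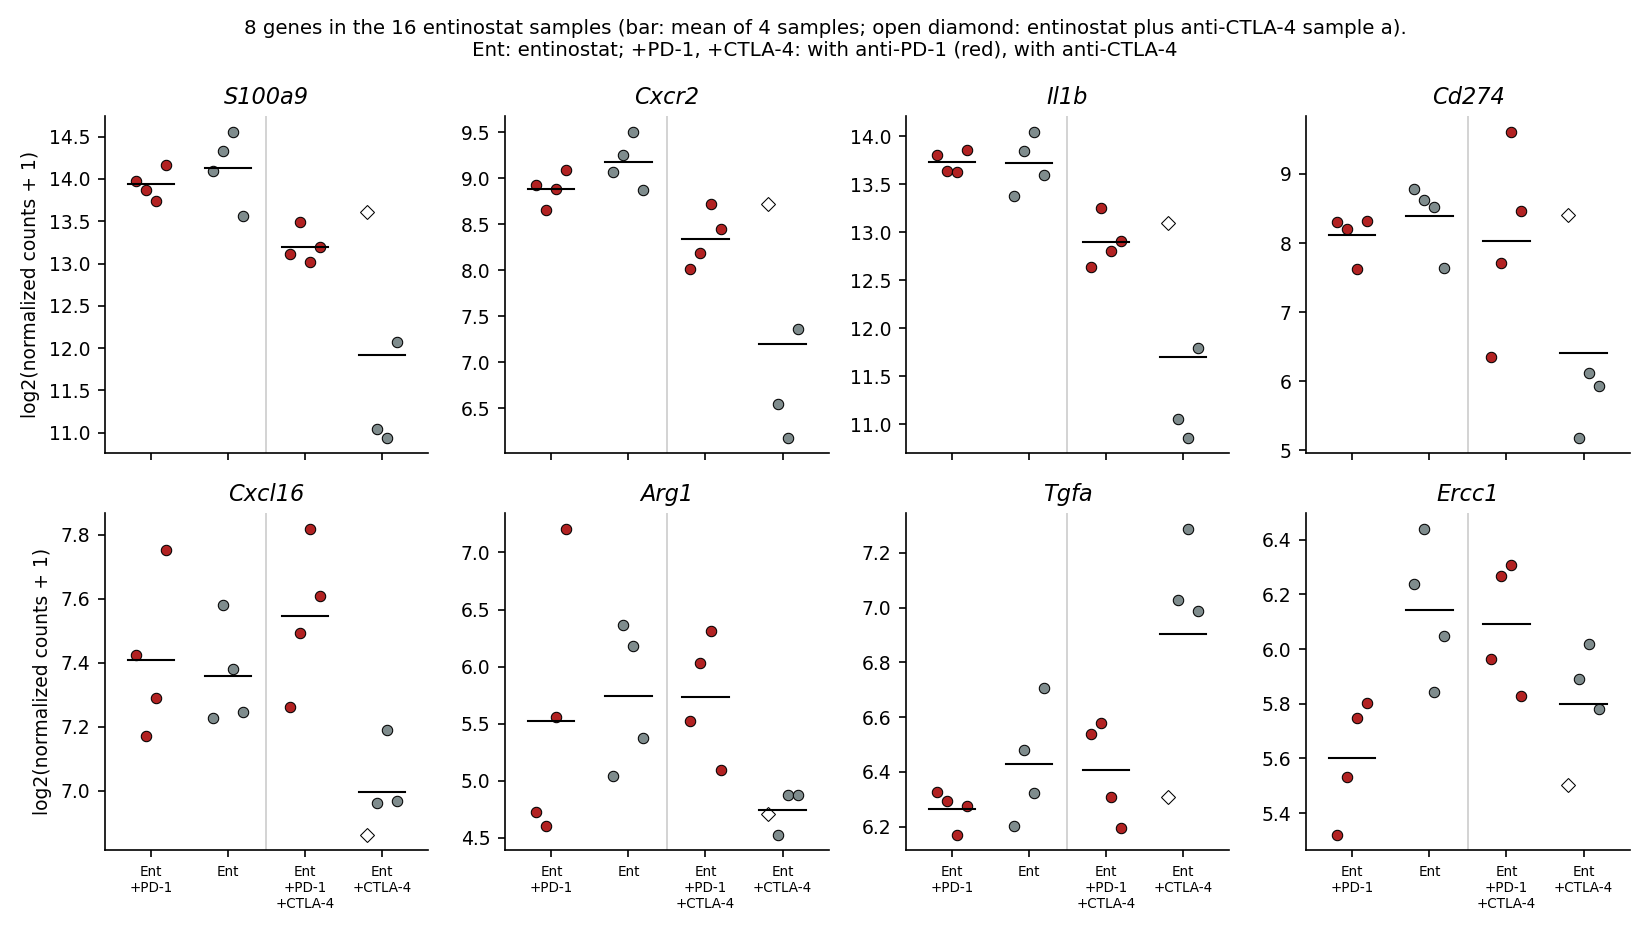
Each panel plots log2(normalized counts + 1) of a gene in the 16 samples, red for samples with anti-PD-1 and grey for those without, with the pair of groups lacking anti-CTLA-4 left of the line and the pair with it right. Bars are means of 4 samples, and the open diamond is entinostat plus anti-CTLA-4 sample a. In S100a9, Cxcr2 and Il1b the diamond sits above or among the triple combination samples and the other 3 grey points of its group lie below them all, while left of the line red and grey overlap.

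Genes by which G-MDSCs are usually described did not pass the test either. S100a9, a subunit of the alarmin calprotectin, measured 16171, 14942, 13679 and 18314 normalized counts in entinostat plus anti-PD-1 samples 1 to 4, against 17414, 20641, 24140.2 and 12065 in entinostat samples 1 to 4. In triple combination samples a, b, 2 and 4 it measured 8842, 11476, 8271 and 9362, against 12459.7, 1959, 2107 and 4309 in entinostat plus anti-CTLA-4 samples a, b, 1 and 3. Without anti-CTLA-4 the groups overlapped, with the entinostat samples holding both the highest and the lowest value. With it the triple combination samples lay between sample a and the other 3 samples of the group without anti-PD-1. The averaged log2 fold change of S100a9 was 0.54 (SE 0.36, 95% interval -0.22 to 1.31, adjusted p = 0.729), made of -0.20 without anti-CTLA-4 and 1.29 with it. Its partner S100a8 gave 0.53, made of -0.18 and 1.24 in the same order. Cxcr2, the receptor that brings neutrophils to CXC chemokines, measured 485, 401, 471 and 542 in entinostat plus anti-PD-1 samples, against 535, 608, 726 and 468 in entinostat samples. With anti-CTLA-4 it measured 258, 291, 420.4 and 347 in triple combination samples, against 419.5, 71.3, 92.3 and 164 in entinostat plus anti-CTLA-4 samples a, b, 1 and 3. Both pairs overlapped, and its averaged log2 fold change was 0.43 (SE 0.33, 95% interval -0.28 to 1.14, adjusted p = 0.729).

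Among the suppressive effectors, Arg1, which depletes arginine, measured 25.4, 23.4, 46.0 and 147 normalized counts in entinostat plus anti-PD-1 samples 1 to 4, against 31.9, 81.2, 71.5 and 40.5 in entinostat samples. Sample 4 of entinostat plus anti-PD-1 was the highest of all 16. Arg1 measured 44.9, 64.2, 78.2 and 33.1 in triple combination samples a, b, 2 and 4. All were above the 25.1, 28.4, 21.98 and 28.2 of entinostat plus anti-CTLA-4 samples a, b, 1 and 3. Those values of entinostat plus anti-CTLA-4 were all under the background limit of 29.3. So were the 25.4 and 23.4 of entinostat plus anti-PD-1 samples 1 and 2. The 78.2 comes from triple combination sample 2, where 1 barcode count stands for 9.78 normalized counts. The averaged log2 fold change of Arg1 was 0.39 (SE 0.37, 95% interval -0.40 to 1.18, adjusted p = 0.747). Ptgs2, the cyclooxygenase behind prostaglandin E, had 0.56, Cybb, the catalytic subunit of the phagocyte oxidase, 0.59, and Tgfb1, an immunosuppressive cytokine, 0.03, the sign of which turned with other scalings. Stat3, a factor of suppressive myeloid programmes, stayed near 0 at -0.04, with a 95% interval of -0.23 to 0.15. Cd274, the ligand of the receptor that the antibody blocks, measured 316, 293, 196 and 320.0 in entinostat plus anti-PD-1 samples, against 438, 392, 365 and 198 in entinostat samples. With anti-CTLA-4 it measured 80.4, 208, 782 and 353 in triple combination samples, against 339.7, 68.4, 35.2 and 60.2 in entinostat plus anti-CTLA-4 samples a, b, 1 and 3. Its averaged log2 fold change of 0.68 (SE 0.52, 95% interval -0.44 to 1.79, adjusted p = 0.729) left room for a fall as well as for a rise of more than 1 log2 unit. Nos2 and Il10, which belong to the same functions, were not tested because their group means stayed under the background limit.

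By function, lists of neutrophil, leukocyte and inflammatory genes had averaged medians above that of all 420 genes, 0.12, with no member passing the test. Over the 13 tested neutrophil genes the median was 0.43 with 13 positive, and over the 13 chemokine receptors and adhesion molecules it was 0.43 with 13 positive. The 23 inflammatory genes induced by NF-kB or TNF gave 0.40 with 20 positive, and 0.63 once sample a of entinostat plus anti-CTLA-4 was left out. Examples are Itgb2, the beta chain of the leukocyte integrins (0.60), Csf3r, the receptor of G-CSF (0.47), and Mmp9, the gelatinase of neutrophil granules (0.47). Others are Cxcl2, a neutrophil-attracting chemokine (0.63), Dusp2, an inducible phosphatase of MAP kinases (0.54), and Ccr1, a receptor of inflammatory chemokines (0.53). Without anti-CTLA-4 the neutrophil, receptor and inflammatory lists had medians of -0.29, -0.16 and -0.03, and with it 1.14, 1.13 and 0.91. In normalized counts, Itgb2 had a median of 146 with anti-PD-1 against 153 without, and Csf3r 661 against 664. Cxcl2 had 2461 against 2596 and Ccr1 403 against 442. The higher median was with anti-PD-1 for Mmp9 (353 against 334) and Dusp2 (1293 against 1250). Sensing genes gave an averaged median of 0.34 over 9 members, all positive. Among them were Nlrp3, the inflammasome sensor (0.55), and Myd88, the adaptor of Toll-like receptors (0.40). In normalized counts, Nlrp3 had a median of 1259 with anti-PD-1 against 1279 without, and Myd88 256 against 246. The 4 tested genes of MHC class II presentation had a median of 0.70, with wide errors, as in Cd74, the invariant chain (0.69, SE 0.62), and H2-Ab1 (0.72, SE 0.67). Without triple combination sample 2 that median was 0.43. The interferon-gamma list gave 0.20 over 6 genes, with Socs3, a feedback inhibitor of cytokine signalling, at 0.48 and the immunoproteasome subunits Psmb9 and Psmb8 at 0.48 and 0.24. The 3 tested type I interferon genes gave 0.38, with Isg15, a ubiquitin-like modifier, at 0.38. Mx1, an antiviral GTPase whose median level was under the background limit with and without anti-PD-1, gave 0.39. Both interferon medians were smaller without triple combination sample 2, at 0.12 for interferon-gamma and 0.10 for type I. After quantile normalization they were 0.05 and 0.09, in the same order. Genes of MHC class I presentation (0.09 over 7), of the cell cycle (0.02 over 6), of the immediate early response (0.00 over 11, rounded from below 0) and of hypoxia (0.03 over 4) were closer to 0 than the median of all genes. Under TMM factors the neutrophil median was 0.22 and that of all genes -0.09, and the medians of the class I, cell cycle and hypoxia lists turned negative.

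Without anti-CTLA-4, no gene passed the test between entinostat plus anti-PD-1 and entinostat alone. Of 420 genes, 0 (0%) were called, 10 (2.38%) had an unadjusted p under 0.05, 2 higher (0.476%) and 8 lower (1.9%), and the smallest adjusted p was 0.971. The median log2 fold change was -0.14, with 26.7% of genes positive, and these became 0.10 and 67.6% after median centring. In the downward direction the smallest p belonged to Ercc1, an endonuclease subunit of DNA repair, which measured 38.9, 45.2, 52.8 and 54.8 normalized counts in entinostat plus anti-PD-1 samples, against 74.4, 85.9, 56.5 and 65.2 in entinostat samples. All 4 samples with anti-PD-1 lay below all 4 without, at a log2 fold change of -0.54 (SE 0.17, adjusted p = 0.971). Ski, a corepressor of TGF-beta signalling, measured 165, 128, 129 and 173 in entinostat plus anti-PD-1 samples, against 229, 234, 247 and 216 in entinostat samples. These did not overlap either, at -0.65 (SE 0.23, adjusted p = 0.971), and Gata3, a lymphoid and epithelial transcription factor, gave -0.30. In the other direction Hist2h2aa1, a histone H2A gene whose near-identical copies may share its probe, measured 1444, 1474, 1567 and 1421 in entinostat plus anti-PD-1 samples, against 1118, 963, 1041 and 1090.5 in entinostat samples. The groups did not overlap, at 0.49 (SE 0.16, adjusted p = 0.971). S100a4, a calcium-binding protein tied to cell motility, gave 0.46, also without overlap, and Insig1, a brake on cholesterol synthesis, 0.25. In all, the 2 groups did not overlap in 5 genes that were higher with anti-PD-1 (1.19%) and in 15 that were lower (3.57%). The lower set held Icosl, a co-stimulatory ligand (-0.52), and Mx1 (-0.71). The 13 neutrophil genes were all negative, with a median of -0.29, and this median stayed below 0 under median centring (-0.06), quantile normalization (-0.17) and TMM factors (-0.17). Epithelial genes had a median of 0.20 over 3 genes and endothelial genes -0.83 over 5, of which 5 were negative.

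With anti-CTLA-4 on both sides, the triple combination stood above entinostat plus anti-CTLA-4 in many genes, but none passed the test over all samples. Again 0 of 420 genes (0%) were called, while 121 (28.8%) had an unadjusted p under 0.05, 118 higher (28.1%) and 3 lower (0.714%). The smallest adjusted p was 0.128. Tests with edgeR called 0, with 49 at an unadjusted p under 0.05 under the deposited scaling and 111 with TMM factors. The median log2 fold change was 0.45 with 73.3% of genes positive, against 0.04 and 51.9% after median centring, and -0.10 and 45% after quantile normalization, so the sign of the median depended on the scaling. Sp4, a transcription factor of the Sp family, had the smallest p and measured 47.6, 49.0, 58.7 and 41.3 normalized counts in triple combination samples a, b, 2 and 4, against 38.4, 28.4, 27.2 and 19.6 in entinostat plus anti-CTLA-4 samples a, b, 1 and 3. The groups did not overlap, and the log2 fold change was 0.80 (SE 0.19, adjusted p = 0.128). Ptprc, the leukocyte common antigen CD45, measured 446, 643, 635 and 657 in the triple combination, against 620.4, 155, 136 and 224 in entinostat plus anti-CTLA-4. Sample a of entinostat plus anti-CTLA-4 lay inside the range of the triple combination and the other 3 samples below it, at 1.33 (SE 0.35, adjusted p = 0.128). The smallest p downward belonged to Plau, the urokinase, with 377, 414, 274 and 296 in the triple combination, against 387, 684, 485 and 634 in entinostat plus anti-CTLA-4, at -0.67 (SE 0.19, adjusted p = 0.128). Here sample a of entinostat plus anti-CTLA-4 lay among the triple combination samples, as it did for Tgfa (-0.50), while for the membrane-bound chemokine Cx3cl1 (-0.39) it lay within their range and below the other 3.

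The groups did not overlap in 8 genes that were higher in the triple combination (1.9%) and in 1 that was lower (0.238%), a set listed after its values were seen. Besides Sp4 and Arg1 the 8 included Cxcl16 (0.55), Daglb (1.09), Smad1, a mediator of BMP signals (0.26), also Tnfsf10, the death ligand TRAIL (0.67), and Ttk, a kinase of the spindle checkpoint (0.50). The lower gene was Mapk13, a p38 kinase (-0.20). Negative controls averaged 3.30, 11.6, 28.1 and 12.9 normalized counts in triple combination samples a, b, 2 and 4. They averaged 8.31, 1.96, 2.50 and 4.30 in entinostat plus anti-CTLA-4 samples a, b, 1 and 3. In triple combination sample 2, 1 barcode count stands for 9.78 normalized counts. The part of background in the separation of low genes such as Sp4, Arg1, Daglb, Tnfsf10 and Ttk was not tested. After quantile normalization the fold changes of Smad1, Tnfsf10 and Ttk turned negative, and that of Smad1 did so under median centring and TMM factors too. No gene was free of overlap in the same direction in both settings, and none over all 8 samples against 8. The 13 neutrophil genes had a median of 1.14, all positive, 12 of them with an unadjusted p under 0.05. Their median was 0.73, 0.71 and 0.56 under median centring, quantile normalization and TMM factors. Csf3r gave 1.09 (SE 0.38, adjusted p = 0.134), Itgb2 1.35 (SE 0.43, adjusted p = 0.128), Il1b 1.21 (SE 0.37, adjusted p = 0.128) and Cxcl2 1.16 (SE 0.46, adjusted p = 0.134). Fc receptors and phagocytosis genes had a median of 1.24 over 7 genes, with Tyrobp, a signalling adaptor of myeloid receptors, at 1.24. Complement genes gave 1.198 over 6, with C5ar1, the receptor of the anaphylatoxin C5a, at 1.18 and the C1q chains C1qa and C1qb at 1.22 and 1.49. Checkpoint and co-stimulatory ligands gave 1.195 over 7, with Cd274 at 1.62, Icosl at 1.195 and Cd86 at 1.31. MHC class II genes gave 1.51 over 4. The 5 endothelial genes, whose median was negative without anti-CTLA-4, had a median of 1.44, with 4 of them positive. MHC class I genes gave -0.01 over 7 and cell cycle genes -0.07 over 6.

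Regulatory sequence upstream of 4 neutrophil genes is shown because the neutrophil list had opposite signs in the settings without and with anti-CTLA-4. Such signs were not particular to this list, as 254 of 420 genes (60.5%) were lower without anti-CTLA-4 and higher with it. A link between the sequence and these signs was not tested. The 250 bases before the annotated start are from RefSeq (GRCm38.p6), written 5′ to 3′ on the gene's strand. In capitals are matches to GAGGAA or its other strand TTCCTC, the core bound by the myeloid factor PU.1.
S100a8 chr3:90668821-90669070 (plus strand): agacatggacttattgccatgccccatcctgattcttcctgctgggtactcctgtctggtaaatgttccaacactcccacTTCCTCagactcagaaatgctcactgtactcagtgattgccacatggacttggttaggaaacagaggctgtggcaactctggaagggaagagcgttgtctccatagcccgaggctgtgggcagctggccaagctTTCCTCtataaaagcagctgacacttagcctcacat
S100a9 chr3:90695722-90695971 (minus strand): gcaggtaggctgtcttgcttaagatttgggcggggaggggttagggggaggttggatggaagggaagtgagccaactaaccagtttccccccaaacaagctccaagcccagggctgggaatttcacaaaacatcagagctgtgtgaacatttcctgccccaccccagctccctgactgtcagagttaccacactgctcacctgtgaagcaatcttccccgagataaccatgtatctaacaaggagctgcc
Csf3r chr4:126024409-126024658 (plus strand): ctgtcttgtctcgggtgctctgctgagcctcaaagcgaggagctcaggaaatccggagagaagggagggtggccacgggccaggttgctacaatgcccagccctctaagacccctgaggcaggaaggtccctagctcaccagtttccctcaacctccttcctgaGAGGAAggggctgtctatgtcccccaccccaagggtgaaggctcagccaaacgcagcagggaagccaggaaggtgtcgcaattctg
Itgam chr7:128062390-128062639 (plus strand): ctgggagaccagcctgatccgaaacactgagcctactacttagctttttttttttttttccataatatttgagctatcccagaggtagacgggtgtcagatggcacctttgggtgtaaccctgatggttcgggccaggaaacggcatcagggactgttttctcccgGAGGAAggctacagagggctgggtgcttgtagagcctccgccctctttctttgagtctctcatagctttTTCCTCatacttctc
 S100a8 and Itgam, an integrin chain, held 2 matches each, Csf3r 1 and S100a9 0. Of the 13 tested neutrophil genes, 10 had a single entry among the promoters, and 6 of the 10 held at least 1 match, against 23.3% of 32851 mouse promoters of the same length. A match describes the letters only and is not a bound site.

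**Figure D2:**
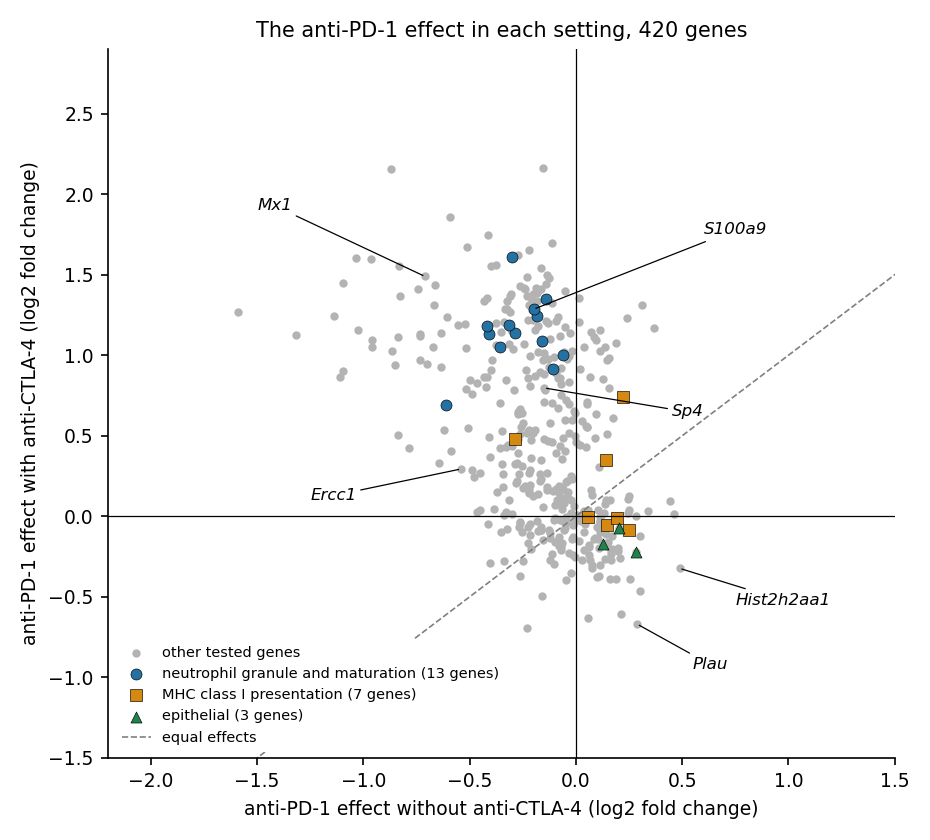
Each point is 1 of the 420 tested genes, with its log2 fold change for anti-PD-1 without anti-CTLA-4 on the x axis and with anti-CTLA-4 on the y axis, and the dashed line marks equal effects. The 13 neutrophil genes lie at negative x and positive y, and the MHC class I genes have medians of 0.15 on the x axis and -0.01 on the y axis.

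The averaged effect was thus the mean of estimates that mostly pointed opposite ways on the deposited scale. Of 420 genes, 254 (60.5%) were lower without anti-CTLA-4 and higher with it, 58 (13.8%) the reverse, and 108 (25.7%) had the same sign in both, 54 positive and 54 negative. Across genes, which are not independent replicates and share libraries and scaling, the correlation of the estimates was -0.46 (Pearson) and -0.47 (Spearman), although the estimates have no sample in common. The test of the difference itself called 0 of 420 genes (0%), with 93 (22.1%) at an unadjusted p under 0.05, 89 higher with anti-CTLA-4 (21.2%) and 4 lower (0.952%). The smallest adjusted p was 0.220. The median was 0.61 with 76.4% of genes positive, and -0.03 after median centring. Sp4 gave 0.94 (SE 0.27, adjusted p = 0.22), a sign that turned negative after quantile normalization, and Ercc1 0.84 (SE 0.25, adjusted p = 0.22). In the other direction Plau gave -0.96 (SE 0.26, adjusted p = 0.22), Hist2h2aa1 -0.81 (SE 0.23, adjusted p = 0.22) and Cx3cl1 -0.64 (SE 0.23, adjusted p = 0.22). Because the settings were run on separate cartridges but for 1 sample, the setting and the cartridge cannot be told apart in this difference. Within cartridges, the comparison without anti-CTLA-4 was complete on the first cartridge. On the second, 3 triple combination samples against 4 of entinostat plus anti-CTLA-4 gave 0 calls, 69 genes at an unadjusted p under 0.05 and a median of 0.59 when fitted alone. There were 32 calls, 31 higher, with the cartridge as a term in the fit of all 16, which is the fit without triple combination sample a.

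**Figure D3:**
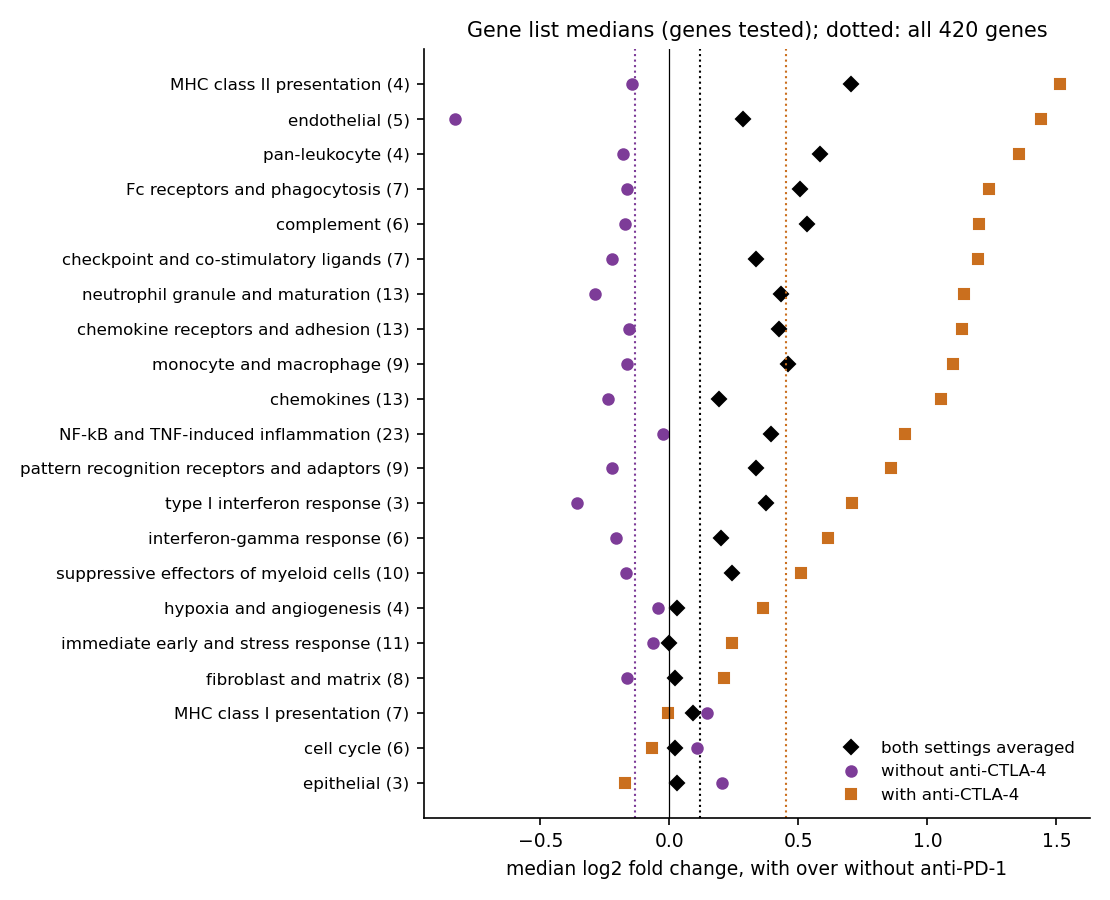
Median log2 fold change for anti-PD-1 in each gene list with at least 3 tested genes (number in brackets), averaged (diamonds), without anti-CTLA-4 (circles) and with it (squares). Dotted lines mark the medians of all 420 genes, 0.12, -0.14 and 0.45. Diamonds lie between circles and squares in each list.

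The number of genes that passed in the setting with anti-CTLA-4 turned on 1 sample. When entinostat plus anti-CTLA-4 sample a was left out, 213 of 420 genes (50.7%) were called for the triple combination over entinostat plus anti-CTLA-4, 200 higher (47.6%) and 13 lower (3.1%). For the difference between the effects 200 genes (47.6%) were called, 188 higher (44.8%) and 12 lower (2.86%). The averaged effect had 0 calls without it too, with 64 genes at an unadjusted p under 0.05. Leaving out any of the other 15 samples gave 0 calls in all 3 tests, except for 32 in the setting with anti-CTLA-4 without triple combination sample a. In fits chosen after seeing the data, the number of calls without sample a was 263 (62.6%) with median centring and 212 (50.5%) with quantile normalization, but their direction was not stable. Of these, 130 were higher and 133 lower (31% and 31.7% of 420) with median centring. With quantile normalization 93 were higher and 119 lower (22.1% and 28.3%). Calls among neutrophil and leukocyte genes ran 1 way under each scaling. Of the 13 neutrophil genes 13 were higher on the deposited scale, 12 with median centring and 11 with quantile normalization. Of the 4 pan-leukocyte genes 4, 4 and 3 were higher, and none of either list was lower. Of the 23 NF-kB and TNF genes 21, 14 and 17 were higher and 0, 1 and 0 lower. Of 13 chemokine receptors and adhesion molecules 13, 12 and 10 were higher and 0 lower. For MHC class I genes 1, 0 and 0 of 7 were higher and 0, 4 and 2 lower, in the same order of scalings. For cell cycle genes 0 of 6 were higher and 1, 4 and 4 lower. For epithelial genes 0 of 3 were higher and 1, 3 and 3 lower. Without sample a, S100a9 gave 1.85 (SE 0.28, adjusted p = 0.000281), Il1b 1.67 (SE 0.23, adjusted p = 0.000225), and Cxcr2 1.65 (SE 0.26, adjusted p = 0.000313), in log2 fold change. Ptprc gave 1.80 (SE 0.19, adjusted p = 0.000104) and Cd274 2.29 (SE 0.57, adjusted p = 0.0052). In the other direction Tgfa gave -0.70 (SE 0.15, adjusted p = 0.00179) and Plau -0.83 (SE 0.17, adjusted p = 0.0014). Arg1, at 0.98 (SE 0.54, adjusted p = 0.142), did not pass. Without sample a the list medians on the deposited scale were 1.72 for neutrophil genes, 1.751 for Fc receptors and phagocytosis, 1.77 for complement, 1.73 for checkpoint ligands, 2.21 for MHC class II and 2.23 for endothelial genes. Of the genes named with all samples, Csf3r gave 1.57, Itgb2 1.87, Cxcl2 1.746, C5ar1 1.78 and Icosl 1.73. These values compare 4 samples with the 3 that remain, rest on the label of the sample left out, and are not given as the effect of the antibody.

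**Figure D4:**
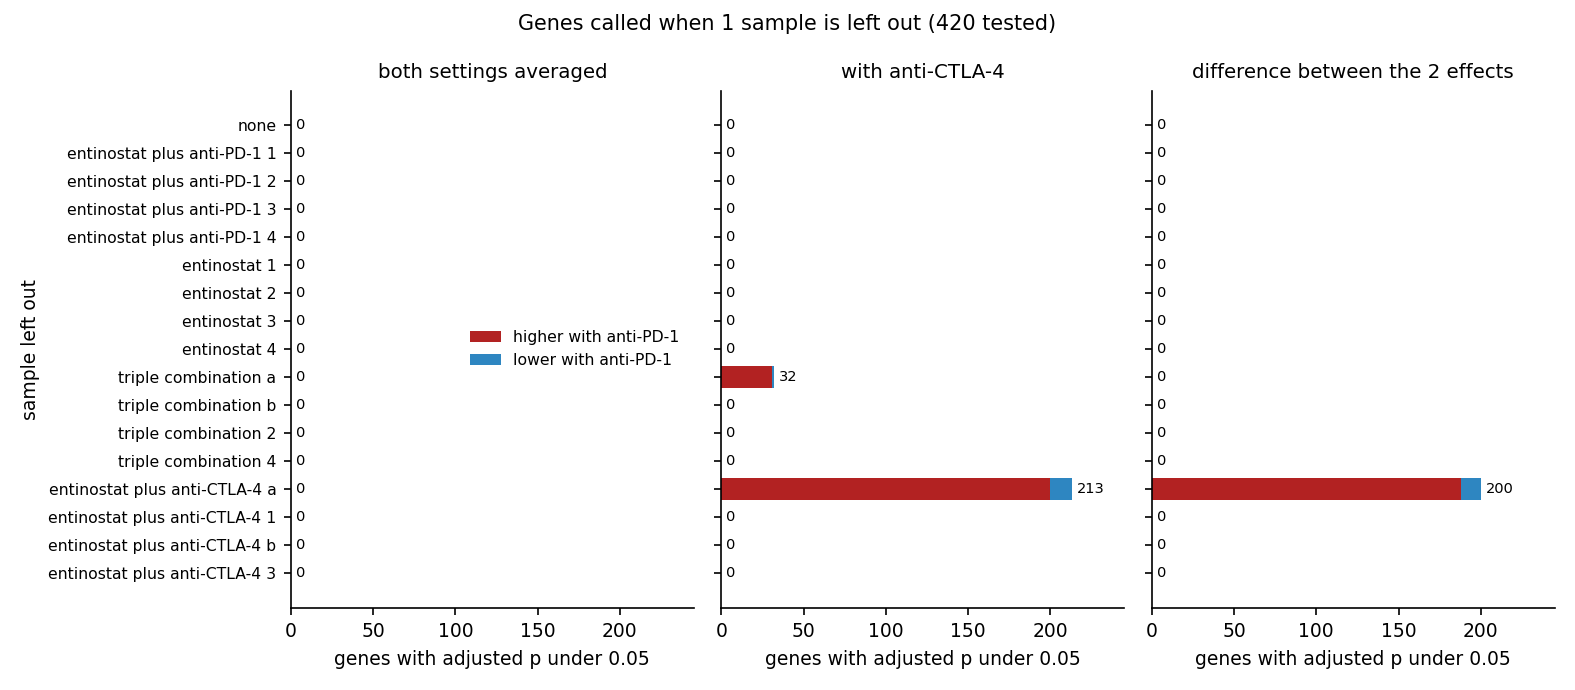
Bars give the number of genes with an adjusted p under 0.05 in limma's fit when the sample on the vertical axis is left out, for the averaged effect, the effect with anti-CTLA-4 and the difference between the effects (red higher with anti-PD-1, blue lower). Leaving out entinostat plus anti-CTLA-4 sample a gives 0, 213 and 200 calls, and leaving out triple combination sample a gives 0, 32 and 0.

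Markers of cell identity moved with these results. The summed level of the 4 tested pan-leukocyte genes (Ptprc, Vav1, Laptm5 and Was) was 976, 1532, 1554 and 1705 normalized counts in triple combination samples a, b, 2 and 4, against 1619, 401, 371 and 551 in entinostat plus anti-CTLA-4 samples a, b, 1 and 3. Without anti-CTLA-4 it was 2045, 1924, 1991 and 2564 in entinostat plus anti-PD-1 samples, against 2199, 2819.7, 2746 and 1952 in entinostat samples. The leukocyte sum was thus lower in 3 samples of entinostat plus anti-CTLA-4 than in any other, and sample a of that group lay with the triple combination. The 3 tested epithelial genes (Cdh1, Met and Ptprk) summed to 1452, 1341, 1183 and 1102 in the triple combination, against 1010.4, 1658, 1519.8 and 1586 in entinostat plus anti-CTLA-4. Without anti-CTLA-4 they summed to 1232, 1121, 1145 and 1048 in entinostat plus anti-PD-1, against 1084, 924, 981 and 1111 in entinostat. Epithelial transcripts were present in every sample, and were highest in the entinostat plus anti-CTLA-4 group apart from its sample a, which was among the lowest. Monocyte and macrophage genes, of which 9 of 14 on the panel were tested, summed to 1055 to 4595 in the triple combination, against 554 to 3289.6 in entinostat plus anti-CTLA-4. Without anti-CTLA-4 they summed to 1147 to 5703 in entinostat plus anti-PD-1, against 1522 to 5577 in entinostat. Among them Adgre1, the macrophage antigen F4/80, gave an averaged log2 fold change of 0.45 and Cx3cr1, the fractalkine receptor, 0.54. From the list of fibroblast and matrix genes, Fn1 (fibronectin) and Pdgfra gave 0.37 and -0.14. In such bulk samples fewer cells of a type and less RNA per cell cannot be told apart, and the part of these markers in the results was not tested.

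Depth moved with the setting too. The log2 of the total barcode count averaged 17.19 with anti-PD-1 and 17.59 without, a difference of -0.41. An exact permutation test within levels of anti-CTLA-4 (two-sided, 4900 arrangements) gave p = 0.514. The difference was made of 0.60 without anti-CTLA-4 and -1.42 with it. The log2 of the median endogenous gene averaged 5.67 with anti-PD-1 and 5.44 without, a difference of 0.22 (same exact test, p = 0.362), made of -0.25 and 0.70. The shallowest sample, triple combination sample 2, had the highest median, 78.2 normalized counts, and entinostat plus anti-CTLA-4 sample 1, the deepest, the lowest, 23.6. Without triple combination sample 2 the difference in depth was -0.04. The part of depth in the results was not tested.

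**Figure D5:**
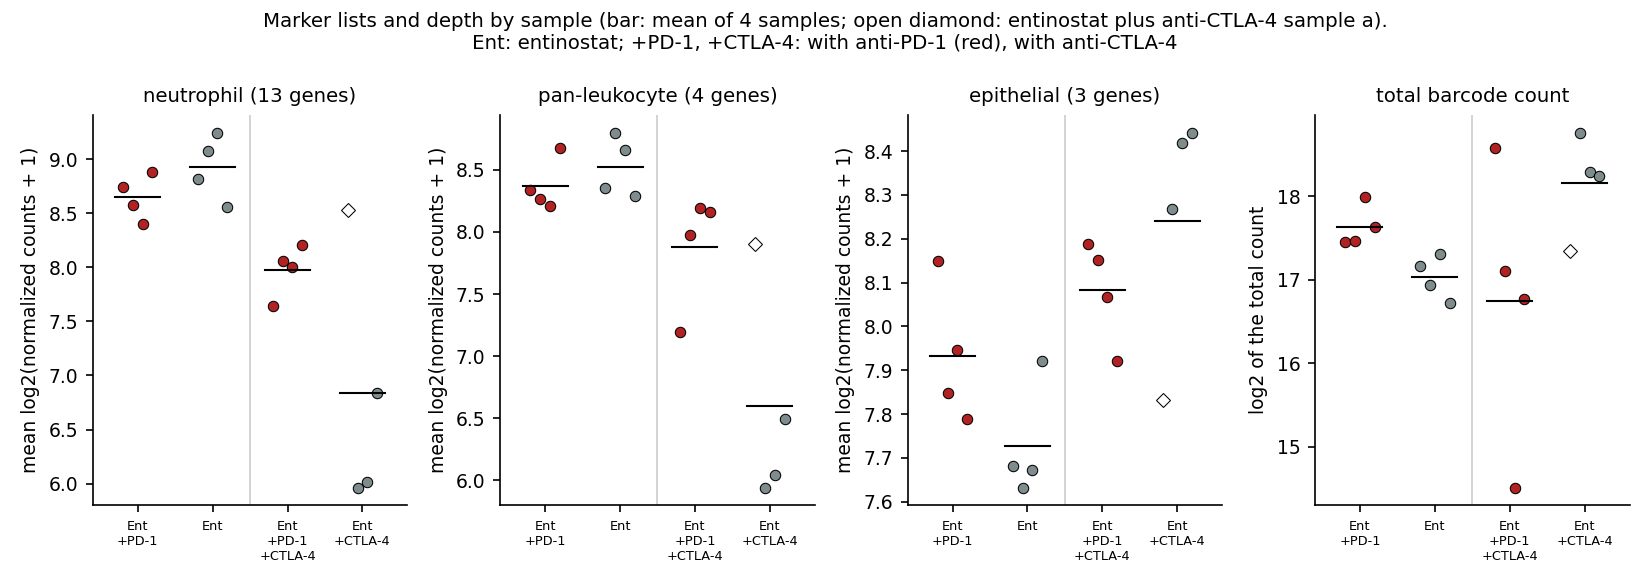
Mean log2(normalized counts + 1) of the tested neutrophil, pan-leukocyte and epithelial genes and the log2 of the total barcode count in each of the 16 samples, red with anti-PD-1 and grey without, with bars at the mean of 4 samples. Entinostat plus anti-CTLA-4 sample a (open diamond) lies above the other 3 samples of its group in the neutrophil and pan-leukocyte panels and below them in the epithelial and depth panels.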

How the data were processed

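RNA of the Ly6G-selected cells was counted on the NanoString mouse myeloid panel. The deposited values are a signal, normalized counts, which the authors made by multiplying the barcode counts of each sample by 1 factor. This was read from the values: dividing by that factor gave whole numbers for 100% of the values above the floor of 1 in each sample (tolerance 0.1), and these recovered counts were used for edgeR only. The 20 housekeeping genes had geometric means of 172 to 194 in the 16 samples. The submitters' processing notes name limma, with no version.

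Genes were tested on log2(normalized count + 1) with limma 3.58.1 (R 4.3.3), with anti-PD-1 and anti-CTLA-4 as terms in 16 samples and Benjamini-Hochberg adjustment over 420 genes. A gene entered if the mean (on the log2 scale) of at least 1 group exceeded 29.3 normalized counts, a limit set from the negative controls (mean plus 2 SD). The added 1 makes the fold change of a low gene smaller. Background differed between samples, with negative controls averaging 1.96 to 28.1 normalized counts, and its part in the fold changes of low genes was not tested. Effects without and with anti-CTLA-4, and their difference, came from a fit with 4 group means. Quasi-likelihood tests in edgeR 4.0.16 were an alternative, as were other pseudocounts, filters, scalings, sample weights, blocks and leaving out each sample. The scripts were tested on simulated data. The text names, for the averaged effect, the 10 genes of smallest p in each direction (none was called), a fixed set of suppressor cell genes, the leading members of each list, and the 3 genes of smallest p in each direction for the separate effects and their difference; 1 gene of this rule is not reported here. The members, lists and named genes were chosen with earlier results of these data known. Numbers shared between groups do not pair samples: correlations of same-numbered samples' deviations ran from -0.52 to 0.38.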

Additional observations from a re-analysis of the deposited data

Results flagged for a closer look

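Of 312 groups of 4 samples examined, 13 held a sample whose gap to its nearest neighbour, as a share of the group's range, exceeded Dixon's 95% critical value for 4 samples. Chance flags about 1 group in 20.

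Triple combination sample a was low in Cxcl2 (a gap of 0.900 of the range), Ptprc (0.913) and Vav1, a leukocyte signalling protein (0.848). In the same group sample 4 was low in Adamts4 (0.884) and high in Smad1 (0.944), and sample 2, the shallowest, was low in Fosb (0.899).

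Entinostat plus anti-CTLA-4 sample a was high in Tgfb1 (0.851), Adgre1 (0.888) and Fn1 (0.886).

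In entinostat plus anti-PD-1, sample 3 was low in Ttk (0.856). In entinostat alone, sample 3 was low in Ttk (0.915), sample 2 was high in C1qb (0.856), and sample 4 was high in the mean of the epithelial genes (0.831).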

How the results depend on the processing

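The averaged effect had 0 calls under every alternative run, with 1 to 85 genes at an unadjusted p under 0.05. Without anti-CTLA-4 the count was 2 with sample weights and 0 otherwise. With anti-CTLA-4 it was 202 with sample weights, 32 with the cartridge as a block, and 0 to 213 when 1 sample was left out. For the difference it was 239 with sample weights and 0 to 200 when 1 sample was left out. With the replicate block, over the 12 numbered samples, the counts were 171 with anti-CTLA-4 and 166 for the difference, and 0 for the other effects. That fit leaves out the 4 samples with no number, entinostat plus anti-CTLA-4 sample a among them. Without the 3 samples that stand apart (samples a of both groups with anti-CTLA-4 and triple combination sample 2), an alternative chosen after seeing the data, the counts were 202 and 204. Also chosen after seeing the data, leaving out entinostat plus anti-CTLA-4 sample a gave 263 and 205 after median centring, and 212 and 146 after quantile normalization. Of 3303 alternatives for single genes, 31 reversed a sign and 104 passed the threshold where the reported value did not. For the averaged effect, Arg1 was -0.039 and Tgfb1 -0.055 with the replicate block, Stat3 0.012 and Mx1 -0.14 with sample weights, Tgfb1 -0.060 and Hist2h2aa1 -0.0071 after median centring, Tgfb1 -0.091 after quantile normalization, and Tgfb1 -0.11, Hist2h2aa1 -0.11 and Insig1 -0.014 with TMM factors. When 1 sample was left out, the averaged values ran over Stat3 -0.067 to 0.0059, Tgfb1 -0.043 to 0.095, Smad1 -0.10 to 0.026 and Cx3cl1 -0.14 to 0.0018. With anti-CTLA-4, Stat3 was -0.28, -0.20 and -0.28, Tgfb1 -0.097, -0.041 and -0.086, and Smad1 -0.15, -0.33 and -0.14 after median centring, quantile normalization and with TMM factors, and Tnfsf10 was -0.091 and Ttk -0.19 after quantile normalization. For the difference, Sp4 was -0.12 after quantile normalization. The causes of these changes were not tested. Depth limits triple combination sample 2 most, where 1 barcode count stands for 9.78 normalized counts.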
